A study of Mus musculus and Rattus norvegicus with 79 samples.

Results

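Gene expression in the liver of fed and unfed C57BL/6 mice was compared at ZT22 (Zeitgeber time, hours after lights on), late in the dark phase, when mice eat. The 6 libraries of this comparison, 3 of fed and 3 of unfed liver, were chosen by the time and feeding state that their labels give and not by any measured value, out of 79 samples in the series. All of these mice were C57BL/6 with no edited gene and no virus or drug given, kept in 12 h of light and 12 h of dark, and accustomed to food at night alone. The sources used here do not give age, the hour at which food was offered or withheld, or whether each library came from its own mouse, so p-values measure the spread between these libraries. Transcripts of the Y-linked genes Ddx3y, Eif2s3y, Kdm5d and Uty were present in all 6 libraries. The series as a whole asks how the glucocorticoid receptor (GR) takes part in the liver's response to food, and it also holds livers of Nr3c1 fl/fl mice (Nr3c1 encodes GR) given a virus for CRE or GFP, hepatocyte cultures and GR binding sites, which were not analysed here. Fed and unfed C57BL/6 livers of ZT18 and ZT14, 3 libraries each, served to ask whether the response at ZT22 differed from that earlier in the night, and livers of ZT13 and ZT10 entered the same model.

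A meal raises insulin and portal glucose, and the liver then makes fatty acids and sterols, largely through the transcription factors SREBP-1c, SREBP-2 and ChREBP, and stores glycogen. Without food, glucagon, glucocorticoids and fatty acids from adipose tissue act on the liver, and the fatty acid receptor PPARα turns on oxidation and ketone body production. Feeding is also a timing cue for the clock of the liver.

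Levels are given as CPM, the share of a library's counts in tested genes, per 1 M and after scaling. Differences are log2 fold changes of fed over unfed with their standard error (SE). The adjusted p is that of edgeR's quasi-likelihood test over all genes, for which 0.05 was the threshold. CPM is not divided by transcript length, so levels of different genes are not compared. Libraries were made from polyA RNA of whole liver, and each held 29.29 to 51.02 M counts over all transcript rows, not all of which were used. The first principal component of the 6 libraries carried 43.3% of their variance and separated the groups, with fed livers at 25.6 to 42.6 and unfed livers at -38.3 to -25.9. Unfed replicate 1 stood apart from the other unfed livers on the second component, and fed replicate 2 was the high fed library for a number of genes that are lower in fed liver, which is stated where it occurs. Hepatocyte markers summed to 108766 to 123632 CPM in fed and 88582 to 125463 CPM in unfed livers, with albumin at 5.15% to 8.35% of counts. Endothelial markers summed to 306 to 321 CPM in fed livers and 412 to 424 CPM in unfed livers without overlap. Of these markers 5 of 10 passed the test, all lower in fed liver, among them Lyve1 (log2 fold change -1.91), Kdr (-0.74) and Stab1 (-0.56). Kupffer cell markers summed to 196 to 238 CPM in fed and 221 to 357 CPM in unfed livers, and stellate cell markers to 265 to 295 CPM in fed and 153 to 306 CPM in unfed livers. The pancreatic list summed to 28.3 to 33.8 CPM in fed and 13.1 to 15 CPM in unfed livers, of which Cela1 gave 21.9 to 26.9 CPM in fed and 7.04 to 8.17 CPM in unfed livers, while Amy2a5 was at 0. Red blood cell markers summed to 98.5, 162 and 81.6 CPM in fed livers, against 59, 154 and 42.7 CPM in unfed livers, with replicate 2 the high one of each group. Of the 5 tested 1 passed the test, Alas2, which was higher in fed liver without overlap (0.60, adjusted p = 0.00813). Alas2 gave 88, 69.9 and 73.9 CPM of these sums in fed and 57.3, 54.7 and 41.3 CPM in unfed livers. The 4 globin genes tested did not pass, with log2 fold changes of 0.04 to 0.18. In bulk liver, fewer cells of a type and less RNA per cell cannot be told apart, and the part of these cells in the results below was not tested.

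Of 14741 genes tested, 1541 were higher and 1440 lower in fed than in unfed livers, 10.5% and 9.77% of the genes and 20.2% together, and the median log2 fold change was -0.01. With only the ZT22 groups fitted, 1004 genes were higher and 746 lower. More than 2-fold changes were found for 335 genes that were higher and 257 that were lower in fed liver. Among genes of at least 5 CPM whose groups did not overlap, as was so for 32.9% of all genes, the steepest rise was that of Chrna4, a subunit of the nicotinic acetylcholine receptor. Chrna4 had 24.6, 22.1 and 20.5 CPM in fed livers, against 0.0825, 0.739 and 0.356 CPM in unfed livers, a log2 fold change of 5.78 (SE 0.49, adjusted p = 5.45e-09; 6.63 without unfed replicate 2). It was all but silent in every unfed liver. Kcnb2, a voltage-gated potassium channel, had 11.2, 7.56 and 14.9 CPM in fed livers, against 0.248, 0.148 and 0.356 CPM in unfed livers (log2 fold change 5.47, SE 0.45, adjusted p = 3.39e-09). Aqp8, a water channel, had 231, 272 and 198 CPM in fed and 28.4, 25.9 and 18.7 CPM in unfed livers (3.26, SE 0.23). Serpina7, the thyroxine-binding globulin, had 13.5, 12.8 and 22 CPM in fed livers, against 3.14, 2.07 and 2.06 CPM in unfed livers (2.73, SE 0.38). Because of that choice, none of these genes had a fed library within the range of the unfed ones.

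Genes that make fatty acids and triglycerides were mostly higher in fed liver. Of 20 members tested, 16 were higher and 2 lower, with a median log2 fold change of 1.50. Acly, which makes cytosolic acetyl-CoA from citrate, had 819, 772 and 772 CPM in fed livers, against 153, 103 and 123 CPM in unfed livers (log2 fold change 2.64, SE 0.14, adjusted p = 1.08e-12). Elovl6, which lengthens palmitate, had 222, 205 and 288 CPM in fed livers, against 41.1, 37.4 and 43.8 CPM in unfed livers (2.55, SE 0.13, adjusted p = 8.14e-13). For both genes each fed liver was far above each unfed one. The cytosolic acetyl-CoA synthetase Acss2 rose by 2.57 (SE 0.15), and its antisense neighbour Acss2os by 2.59 (SE 0.15); whether counting used strand is not given, so reads of these 2 genes cannot be told apart. Pnpla3, a lipid droplet lipase, was low in level, at 11.8, 13.2 and 22 CPM in fed and 0.825, 1.03 and 0.474 CPM in unfed livers (4.31, SE 0.52, adjusted p = 1.45e-06). Scd1, which puts a double bond into stearate, had 9048, 9465 and 7920.4 CPM in fed livers, against 1807, 4462 and 3467 CPM in unfed livers (1.44, SE 0.24, adjusted p = 0.000114). Unfed replicate 1 had the lowest Scd1 level of the 6, and the groups did not overlap. Me1, the malic enzyme that supplies NADPH, rose by 1.80 (SE 0.14), Acaca, the cytosolic acetyl-CoA carboxylase, by 1.49 (SE 0.13), and Gpam, which adds the first acyl chain to glycerol-3-phosphate, by 1.19 (SE 0.13).

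Not every step of the pathway moved that way. Dgat1, one of 2 enzymes that close triglyceride synthesis, was lower, at 20.4, 22.5 and 21.9 CPM in fed and 25.3, 36 and 28.1 CPM in unfed livers (-0.47, SE 0.10, adjusted p = 0.00204). Its log2 fold change was -0.30 without unfed replicate 2, and it was not past the threshold when only the ZT22 groups were fitted. Lpin2, a phosphatidate phosphatase, had 180.4, 349.6 and 204 CPM in fed livers, against 361, 436 and 503 CPM in unfed livers (-0.83, SE 0.19, adjusted p = 0.00253), with fed replicate 2 close to the unfed livers. Its relative Lpin1 did not pass the test, with 55.6, 284 and 69.7 CPM in fed and 75.1, 91.6 and 251 CPM in unfed livers (adjusted p = 0.978). Here 1 library of each group stood far above the other two, and without fed replicate 2 the log2 fold change of Lpin1 was -1.15 (adjusted p = 0.0451). Among long-chain elongases and desaturases, 7 of 18 were higher and 3 lower (median 0.33), beside 10.5% and 9.77% of all genes tested. Acsl5, which activates fatty acids, rose by 1.23 (SE 0.11), and the front-end desaturase Fads1 by 0.65 (SE 0.09). The acyl-CoA thioesterase Acot1 fell by 1.18 (SE 0.24).

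Cholesterol synthesis moved as a block, with 20 of 21 members higher, 0 lower (0 also at an unadjusted p under 0.05 by edgeR and 0 by DESeq2) and a median log2 fold change of 1.99. Fdps, which makes farnesyl diphosphate, had 381, 447 and 428 CPM in fed livers, against 51.6, 29 and 39.7 CPM in unfed livers (3.38, SE 0.22, adjusted p = 8.23e-11). Mvd, the mevalonate decarboxylase, had 44.7, 59.5 and 54.1 CPM in fed livers, against 8.17, 4.43 and 5.45 CPM in unfed livers (3.13, SE 0.22, adjusted p = 2.05e-10). Idi1, the isomerase of the pathway, had 30, 48.6 and 40.4 CPM in fed and 9.57, 3.69 and 6.64 CPM in unfed livers (2.58, SE 0.28), and for Idi1 fed replicate 2 was the highest and unfed replicate 2 the lowest. Among the late steps, Dhcr7, the last reductase, rose by 2.21 (SE 0.13) and Ebp, a sterol isomerase, by 0.65 (SE 0.09). Ggps1, which leads away from sterols to geranylgeranyl diphosphate, was the member that did not pass the test (-0.16, adjusted p = 0.357).

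Regulators and carriers of sterol split into both directions, 8 higher and 7 lower of 21. Insig1, which holds SREBP in the endoplasmic reticulum, rose by 1.86 (SE 0.18). Mylip, a ubiquitin ligase that sends the LDL receptor to degradation, went the other way, with 7, 8.74 and 6.39 CPM in fed livers, against 18.7, 21 and 24.7 CPM in unfed livers (-1.54, SE 0.16, adjusted p = 2.3e-07). The subunits of the canalicular sterol exporter fell together, Abcg5 by 1.34 (SE 0.16) and Abcg8 by 1.50 (SE 0.18). Abca1, which loads cholesterol on HDL, did not pass the test (0.24, adjusted p = 0.122; 0.37 and past it without unfed replicate 1, 0.35 and past it without fed replicate 2).

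**Figure D1:**
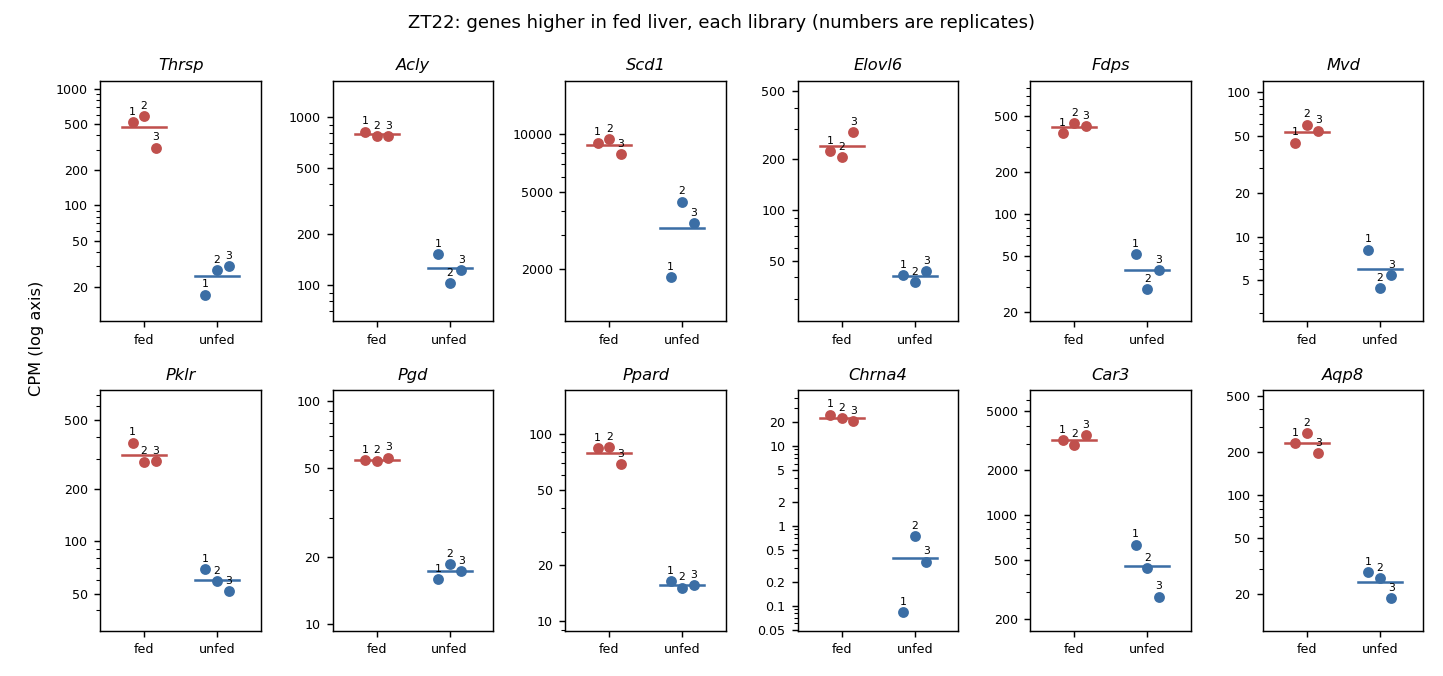
CPM on a log axis in each of the 3 fed (left) and 3 unfed (right) livers at ZT22 for 12 genes that were higher in fed liver. Points are libraries numbered by replicate and lines are group means; for each of the 12 genes every fed liver lies above every unfed one.

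The promoters of these genes are shown because the members moved together. SREBP binds DNA beside the factor NF-Y, whose core site is the CCAAT box. CCAAT was searched on both strands in the 250 bases before the RefSeq start site (GRCm38.p6), where it was found in 34.5% of all 27025 promoters. It was found in 14 of the 16 cholesterol synthesis promoters that the table holds and in 7 of 16 for fatty acid and triglyceride synthesis. Among promoters of genes tested, 36.3% held it. In the list of unfolded protein response and endoplasmic reticulum chaperone genes, treated below, 19 of 21 promoters held it. Ggps1 was among the 14, while the promoter of Dhcr7, which rose, had no match. Stretches are shown only for promoters with a match. The sterol response element TCACNCCAC was found in 1.04% of all promoters. Of these 16 cholesterol promoters, that of Hmgcs1 (the synthase at the entry of the pathway) held it, and also held 3 CCAAT boxes. The element was found in 0 of the 16 promoters for fatty acid and triglyceride synthesis. In the unfolded protein response list 1 of 21 held it, that of Hsp90b1. In the stretches that follow, capitals mark CCAAT (read ATTGG on the other strand) or the sterol response element, and in Fasn 2 of these overlap. Hmgcs1 had 517, 661 and 682 CPM in fed livers, against 202, 121 and 145 CPM in unfed livers (1.99, SE 0.24).
Hmgcs1, chr13:119690101-119690325, + strand: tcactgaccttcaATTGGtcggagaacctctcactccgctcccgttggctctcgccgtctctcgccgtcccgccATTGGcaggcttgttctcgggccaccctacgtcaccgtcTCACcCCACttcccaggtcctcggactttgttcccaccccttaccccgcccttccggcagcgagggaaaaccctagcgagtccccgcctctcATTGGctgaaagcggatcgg
Mvd, chr8:122443430-122443497, - strand: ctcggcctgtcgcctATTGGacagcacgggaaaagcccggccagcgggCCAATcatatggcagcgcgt
Idi1, chr13:8885546-8885605, + strand: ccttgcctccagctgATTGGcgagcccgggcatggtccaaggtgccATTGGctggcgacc
Fasn, the fatty acid synthase, chr11:120824587-120824652, - strand: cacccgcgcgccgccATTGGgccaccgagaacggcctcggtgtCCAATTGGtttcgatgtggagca
Thrsp, a regulator of lipogenesis also known as Spot 14, chr7:97417583-97417644, - strand: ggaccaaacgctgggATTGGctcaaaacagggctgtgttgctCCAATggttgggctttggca
Matches are a description of these windows, and binding at them was not analysed here.

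In sugar metabolism the genes of glycolysis, hexose uptake and the pentose phosphate pathway were 13 higher and 1 lower of 22 (median 0.45; 0 lower without unfed replicate 3, fed replicate 1 or fed replicate 3). Pklr, the liver pyruvate kinase and a classical ChREBP target, had 370.4, 288 and 289.8 CPM in fed livers, against 69.1, 58.9 and 51.9 CPM in unfed livers (2.40, SE 0.18, adjusted p = 3.57e-10). Pgd, which makes NADPH in the pentose phosphate pathway, had 54.3, 54 and 55.7 CPM in fed livers, against 15.9, 18.6 and 17.3 CPM in unfed livers (1.66, SE 0.12, adjusted p = 2.93e-10). Libraries within a group differed little for Pgd, and the groups stood well apart. Enzymes of fructose use were higher too, Khk (ketohexokinase) by 0.81 (SE 0.12) and Tkfc, which phosphorylates glyceraldehyde, by 1.22 (SE 0.15). The glucose transporter Slc2a2 did not pass the test (0.32, adjusted p = 0.113).

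Glycogen enzymes moved in part, with 5 of 18 higher and 2 lower (1 lower without unfed replicate 1 or 2 or without fed replicate 1 or 2). Pygl, the liver phosphorylase, which breaks glycogen down, rose, with 721, 652 and 562 CPM in fed livers, against 375, 308 and 307 CPM in unfed livers (0.96, SE 0.11, adjusted p = 3.74e-07). The branching enzyme Gbe1 rose by 0.59 (SE 0.09). Of 20 gluconeogenesis genes 6 were lower and 2 higher (median -0.30). Lower were 4 without unfed replicate 3, fed replicate 1 or fed replicate 3, and at most 9 without 1 ZT22 library. Higher was 1 without unfed replicate 1 or fed replicate 2. For this list and that of glycogen, the shares over all genes tested were 10.5% higher and 9.77% lower. Pck1, which makes phosphoenolpyruvate, had 1188, 3225 and 937 CPM in fed livers, against 4812, 4574 and 5104 CPM in unfed livers. Fed replicate 2 lay between the other fed livers and the unfed ones, and the log2 fold change was -1.44 (SE 0.29) with it and -2.18 without it. Crtc2, a coactivator of the cAMP response, fell by 0.63 (SE 0.10), and Fbp1, the fructose bisphosphatase, rose by 0.42 (SE 0.08). G6pc, the last step of glucose release, overlapped between the groups, with 737, 651 and 495 CPM in fed and 1249, 631 and 778 CPM in unfed livers (adjusted p = 0.28).

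Most genes of the fasting programme that passed the test were lower in fed liver. Of 19 fasting-induced PPAR target genes 14 were lower and 1 higher, with a median log2 fold change of -1.17. Among 23 members of the list for fatty acid oxidation and ketone bodies 10 were lower and 0 higher (median -0.23; 1 higher at an unadjusted p under 0.05 by edgeR, 0 by DESeq2). Cpt1a, which lets long-chain acyl groups into mitochondria, had 225, 229 and 234 CPM in fed livers, against 515, 667 and 661 CPM in unfed livers (-1.42, SE 0.12, adjusted p = 2.55e-09). Slc22a5, the carnitine transporter, had 25.1, 24.7 and 23.6 CPM in fed livers, against 51.8, 82.8 and 73.1 CPM in unfed livers (-1.50, SE 0.19, adjusted p = 3.57e-06). For both genes the fed livers lay within a narrow range below all unfed livers.

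The microsomal ω-hydroxylase Cyp4a14 had 294, 317 and 652 CPM in fed livers, against 794, 2895 and 3365 CPM in unfed livers (-2.48, SE 0.61, adjusted p = 0.00487). Cyp4a10 had 269, 321 and 383 CPM in fed livers, against 746, 1870.1 and 2123 CPM in unfed livers (-2.28, SE 0.37, adjusted p = 7.59e-05). Unfed replicate 1 was well below the other unfed livers for both, and Cyp4a genes are near-identical in sequence, so reads may be split between them. Angptl4, an inhibitor of lipoprotein lipase, had 30.3, 92.2 and 31.3 CPM in fed livers, against 164, 191 and 222 CPM in unfed livers (-1.90, SE 0.28, adjusted p = 2.47e-05; -2.64 without fed replicate 2), with fed replicate 2 the high one of its group. Ppara itself fell by 0.63 (SE 0.12). Fabp1, a PPARα target that also carries fatty acids in the cytosol, was the member that rose, with 1339, 1171 and 1460.1 CPM in fed livers, against 780.1, 878 and 464 CPM in unfed livers (0.90, SE 0.21, adjusted p = 0.00238). Lipases and droplet proteins were mixed, 5 higher and 4 lower of 18, beside 10.5% higher and 9.77% lower of all genes tested. Higher were 1 without unfed replicate 1 or without unfed replicate 3, and 2 without fed replicate 1. Pnpla2, the adipose triglyceride lipase, fell by 1.32 (SE 0.18).

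**Figure D2:**
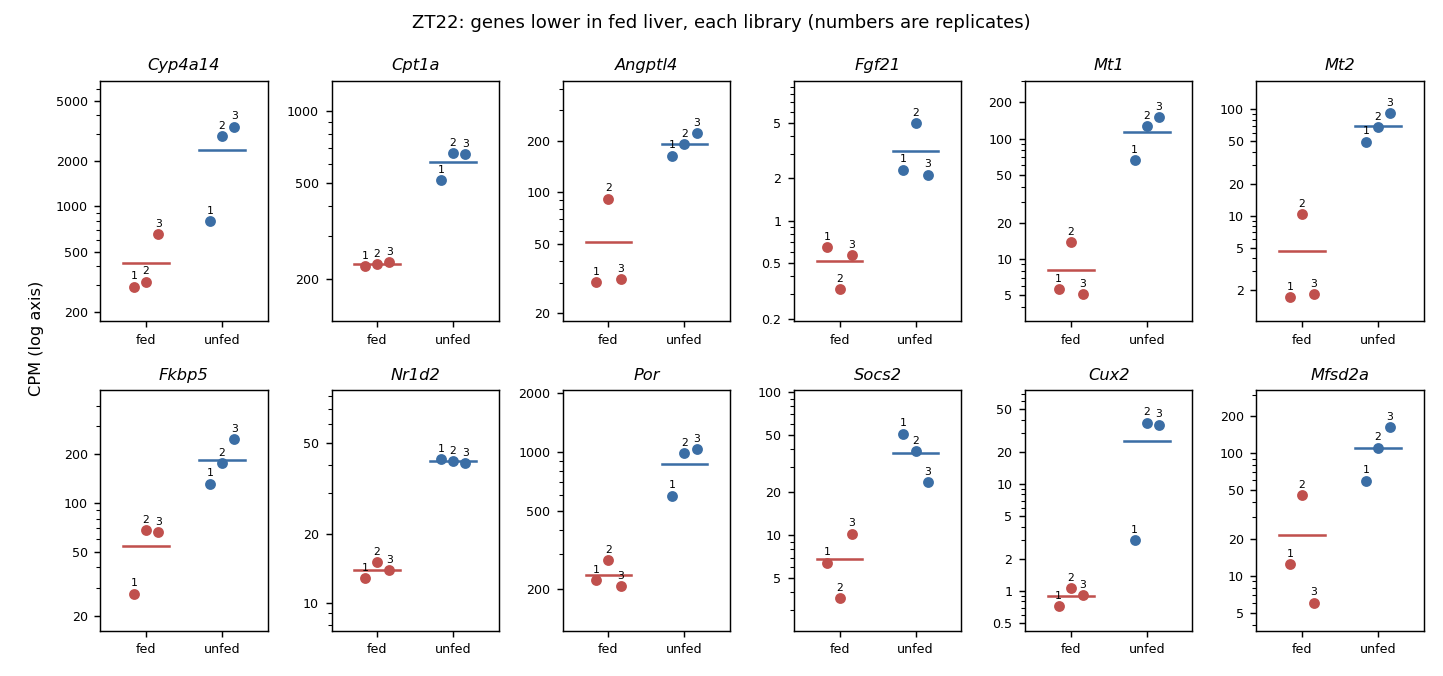
CPM on a log axis in each of the 3 fed (left) and 3 unfed (right) livers at ZT22 for 12 genes that were lower in fed liver. Points are libraries numbered by replicate and lines are group means; unfed replicate 1 is the low unfed library for Cyp4a14 and Cux2, and fed replicate 2 the high fed library for Angptl4, Mt1, Mt2 and Mfsd2a.

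Hormones made by the liver were 6 higher and 8 lower of 27 (5 lower without unfed replicate 2). Fgf21, the fasting hormone, was scarce, at 0.652, 0.325 and 0.571 CPM in fed and 2.31, 4.95 and 2.13 CPM in unfed livers (-2.59, SE 0.55, adjusted p = 0.00125). Igfbp1, which binds insulin-like growth factors and is repressed by insulin, had 49.9, 77.8 and 45 CPM in fed livers, against 254, 129 and 212 CPM in unfed livers (-1.78, SE 0.37, adjusted p = 0.00103). Angptl8, an insulin-induced regulator of lipoprotein lipase, had 121, 65.6 and 115 CPM in fed livers, against 13.9, 34.6 and 13 CPM in unfed livers (2.28, SE 0.45, adjusted p = 0.00063; 2.90 without unfed replicate 2). The fed and unfed livers did not overlap for any of these hormones, and replicate 2 of both groups came closest to each other for Angptl8. Inhbb, the activin B subunit, fell by 2.34 (SE 0.41), Lect2, a hepatokine, rose by 1.19 (SE 0.16), and Leap2, which blocks the ghrelin receptor, rose by 1.42 (SE 0.20), at 59, 45.7 and 53.2 CPM in fed and 16.3, 26.2 and 16.4 CPM in unfed livers. Among insulin signalling genes and FOXO targets, 6 of 24 were lower and 3 higher (1 higher without unfed replicate 2 or without fed replicate 1). Beside the counts of this list and of the hormones, 10.5% of all genes tested were higher and 9.77% lower. The insulin receptor Insr fell by 0.47 (SE 0.09), at 184, 189 and 159 CPM in fed and 231, 243 and 265 CPM in unfed livers, and Txnip, an inhibitor of thioredoxin, fell by 1.51 (SE 0.31).

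GR target genes were 10 lower and 1 higher of 25, with a median log2 fold change of -0.65. The count lower was 16 without fed replicate 2 and 8 without fed replicate 3. The count higher was 0 without replicate 2 of either group and 2 without unfed replicate 3 or fed replicate 3. The 2 metallothioneins, small zinc-binding proteins that glucocorticoids and metals induce, were among the members that fell. Mt1 had 5.63, 13.7 and 5.14 CPM in fed livers, against 66, 127 and 150.5 CPM in unfed livers (-3.80, SE 0.46, adjusted p = 1.73e-06). Mt2 had 1.72, 10.4 and 1.83 CPM in fed livers, against 49.8, 68.4 and 92.6 CPM in unfed livers (-3.89, SE 0.56, adjusted p = 1.76e-05). Even the highest fed library, replicate 2, was well below the lowest unfed one, and without it the log2 fold change was -4.40 for Mt1 and -5.31 for Mt2. Fkbp5, a cochaperone of GR that GR itself induces, had 27.6, 68.4 and 65.8 CPM in fed livers, against 132, 176 and 248 CPM in unfed livers (-1.78, SE 0.26, adjusted p = 2.21e-05), and Klf9 fell by 0.69 (SE 0.14). Tsc22d3, which encodes the glucocorticoid-induced leucine zipper, was higher, at 169, 334 and 147 CPM in fed and 115, 86.5 and 153 CPM in unfed livers (0.87, SE 0.24, adjusted p = 0.0111), with overlap of the groups. The call for Tsc22d3 was lost without fed replicate 2 (0.42), without unfed replicate 2 (0.69) or with only the ZT22 groups fitted (0.88). Tat, a tyrosine aminotransferase long used as a GR target, did not pass the test (0.07, adjusted p = 0.873).

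Metallothioneins and zinc transporters also formed a joint list. Of its 14 members 2 were higher (0 without fed replicate 1, 1 without unfed replicate 1 or fed replicate 2). Lower were 4, Mt1 and Mt2 included, and Slc39a8 fell by 0.46 (SE 0.10). Among all genes tested, 10.5% were higher and 9.77% lower. The promoters of the metallothioneins are shown for the metal response element, whose core was searched as TGCACNC and TGCGCNC on both strands. TGCACNC was found in 10.2% of all promoters and 10.8% of those of genes tested, and TGCGCNC in 12.6% and 20.8%. Of the 12 promoters of the list, 4 held TGCACNC and 3 held TGCGCNC. Capitals mark the fixed letters of each match.
Mt1, chr8:94179051-94179087, + strand: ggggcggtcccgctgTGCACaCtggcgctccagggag
Mt2, chr8:94172380-94172589, + strand: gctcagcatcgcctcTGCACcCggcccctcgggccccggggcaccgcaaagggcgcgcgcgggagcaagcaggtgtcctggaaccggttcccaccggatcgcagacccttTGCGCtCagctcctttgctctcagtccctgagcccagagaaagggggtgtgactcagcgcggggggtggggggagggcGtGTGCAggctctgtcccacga
Both genes lie on chromosome 8, and Mt2 held matches of each core.

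Genes of the unfolded protein response and the chaperones of the endoplasmic reticulum (ER), which fold secreted proteins, were 13 higher and 1 lower of 26 (median 0.42). Without 1 ZT22 library 10 to 15 were higher, 10 of them without unfed replicate 2. Lower were 0 without unfed replicate 3 or fed replicate 1 and 2 without unfed replicate 1. Sec61b, a subunit of the ER translocon, had 32.7, 35 and 39.5 CPM in fed livers, against 15.4, 17.5 and 13.8 CPM in unfed livers (1.20, SE 0.15, adjusted p = 1.98e-06). Pdia6, a protein disulfide isomerase, had 391, 393 and 375 CPM in fed livers, against 214, 172 and 173 CPM in unfed livers (1.05, SE 0.17, adjusted p = 7.53e-05). Calr, the lectin chaperone calreticulin, had 982, 939 and 985 CPM in fed livers, against 534, 439 and 468 CPM in unfed livers (1.01, SE 0.15, adjusted p = 2.39e-05). Fed livers stood close together, and far above the unfed ones, for Pdia6 and Calr. Hspa5, the chaperone BiP and the most used marker of this response, did not pass the test, with 949, 1053 and 1002 CPM in fed and 716, 608 and 936 CPM in unfed livers (0.41, SE 0.19, adjusted p = 0.138). It was past the threshold without unfed replicate 3 (0.61, adjusted p = 0.0476). Of 21 genes of the ATF4 arm 0 were higher and 4 lower, with a median of -0.11, where 20.2% of all genes were called in one direction or the other. Higher were 1 at an unadjusted p under 0.05 by edgeR, 0 by DESeq2 and 2 without unfed replicate 3. Sesn2, an inhibitor of mTORC1, fell by 1.03 (SE 0.17) and Ppp1r15a, a subunit of the eIF2α phosphatase, by 0.83 (SE 0.17). Atf4 itself was not past the threshold (0.03, adjusted p = 0.871).

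The ER stress response element, CCAAT and CCACG with 9 bases between them, contains a CCAAT box in each match. It was found in 0.122% of all promoters and in 9 of the 21 promoters of the list in the table. The element was held both by genes that rose and by genes that did not pass the test, as these stretches show, in which capitals mark the ends of the element. Hsp90b1, the ER member of the HSP90 family, rose by 0.58 and held it on both strands.
Calr, chr8:84847060-84847108, - strand: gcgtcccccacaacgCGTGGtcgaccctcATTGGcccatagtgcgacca
Pdia6, chr12:17266476-17266524, + strand: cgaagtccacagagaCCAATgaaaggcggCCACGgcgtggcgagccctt
Hsp90b1, chr10:86705518-86705671, - strand: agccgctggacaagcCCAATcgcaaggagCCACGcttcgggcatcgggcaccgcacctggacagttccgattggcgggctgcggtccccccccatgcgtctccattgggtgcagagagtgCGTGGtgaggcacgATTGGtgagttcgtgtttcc
Hspa5, chr2:34772010-34772058, + strand: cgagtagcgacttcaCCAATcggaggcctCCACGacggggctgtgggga
In the cytosol, 6 of 18 heat shock chaperones were higher and 1 lower (0 without unfed replicate 3): Hsp90aa1 had 265, 300.1 and 321 CPM in fed livers, against 169, 110.1 and 130.2 CPM in unfed livers (1.11, SE 0.19, adjusted p = 0.000133), and its cochaperone Stip1 rose by 0.78 (SE 0.17). Proteasome subunits were 10 higher and 0 lower of 27 (0 lower also at an unadjusted p under 0.05 by edgeR and by DESeq2). The amounts were small, such as 0.36 (SE 0.07) for Psma1 and 0.45 (SE 0.09) for Psmd14. The count dropped to 3 without unfed replicate 3, 4 without fed replicate 1 and 6 without unfed replicate 2.

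**Figure D3:**
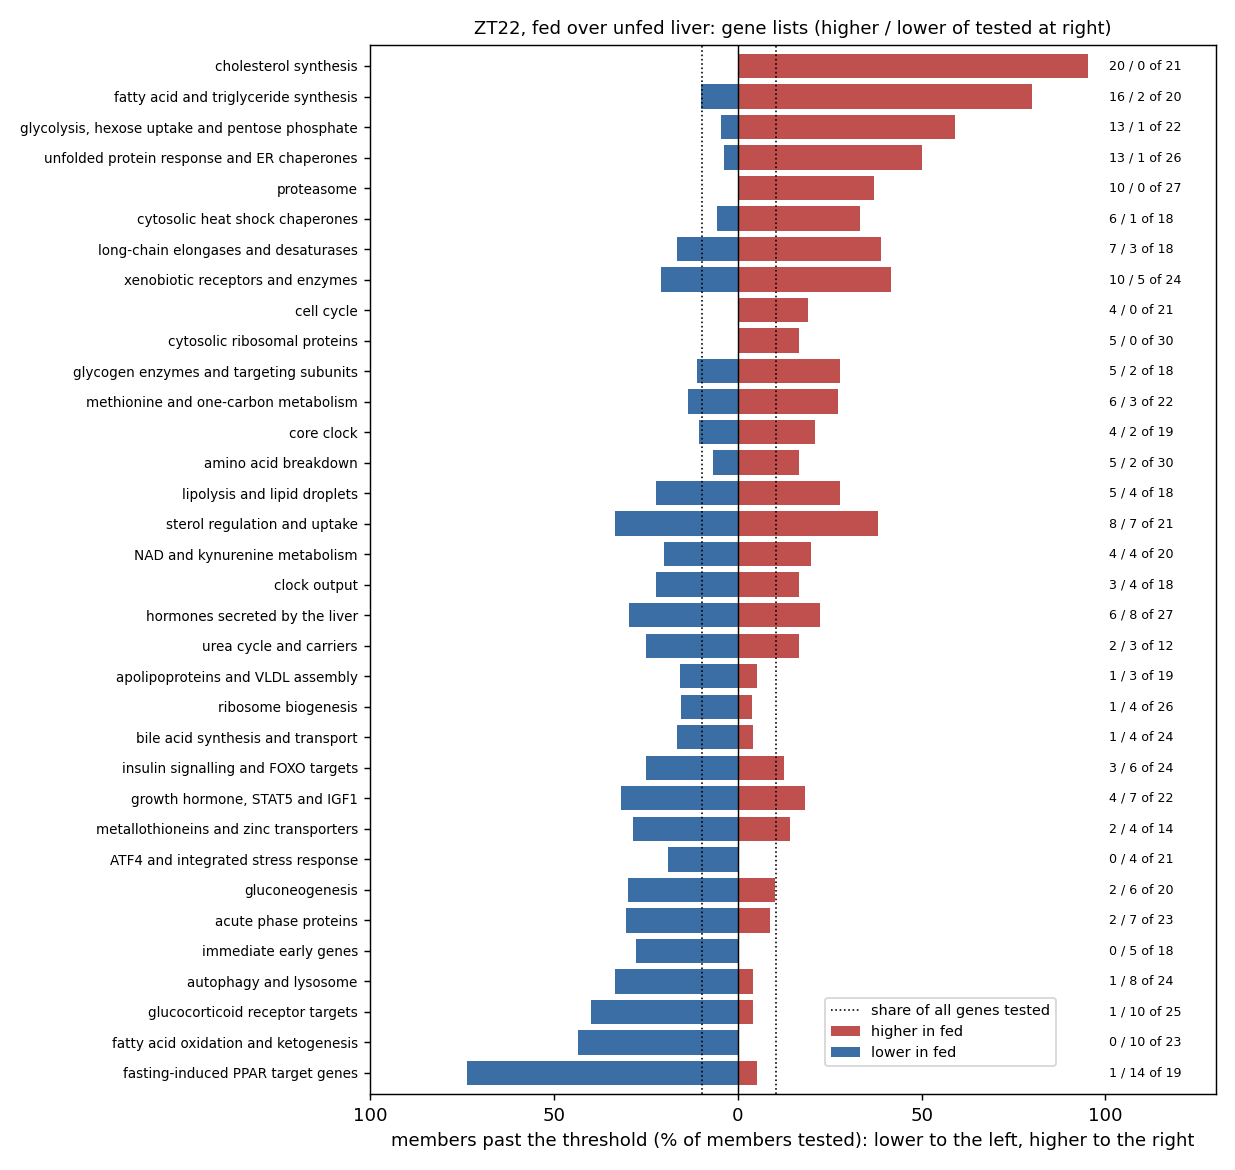
Share of the tested members of 34 gene lists that were higher (right) or lower (left) in fed than in unfed liver at ZT22, in percent, with the counts at the right edge and dotted lines at the shares of all genes tested (10.5% higher, 9.77% lower). Cholesterol synthesis (20 of 21 higher) is at the top and fasting-induced PPAR targets (14 of 19 lower) at the bottom.

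Of 19 core clock members 4 were higher and 2 lower, with a median of 0.02 (1 lower without unfed replicate 3, fed replicate 1 or fed replicate 3). The shares of all genes tested were 10.5% higher and 9.77% lower. Clock overlapped between the groups (0.02, adjusted p = 0.932). Nr1d2, the repressor REV-ERBβ, had 12.8, 15 and 13.9 CPM in fed livers, against 42.2, 41.5 and 40.5 CPM in unfed livers (-1.58, SE 0.16, adjusted p = 1.32e-07). Npas2, the partner of BMAL1 in place of CLOCK, had 21.5, 18.8 and 21.8 CPM in fed livers, against 6.15, 3.32 and 4.74 CPM in unfed livers (2.13, SE 0.46, adjusted p = 0.00147). Nr1d2 differed little within a group, and neither gene's groups overlapped. Per2 had 59, 56.5 and 53.4 CPM in fed livers, against 30.4, 22.7 and 41.9 CPM in unfed livers (0.83, SE 0.16, adjusted p = 0.000443). Per1, which glucocorticoids induce, had 9.3, 43.9 and 10.4 CPM in fed livers, against 53.7, 32.8 and 50.2 CPM in unfed livers. Its groups overlapped through replicate 2 of both. The log2 fold change was -1.09 (SE 0.34, adjusted p = 0.0241) with all libraries and -2.21 without fed replicate 2. The call was lost without any other ZT22 library except unfed replicate 2 and with only the ZT22 groups fitted.

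Clock-controlled genes were 3 higher and 4 lower of 18 (7 lower without fed replicate 2), beside 10.5% higher and 9.77% lower of all genes tested. Por, which passes electrons to the microsomal cytochromes P450, had 222, 279 and 207 CPM in fed livers, against 597, 986 and 1028 CPM in unfed livers (-1.88, SE 0.17, adjusted p = 1.78e-08). Alas1, the rate-limiting enzyme of haem synthesis, had 235, 121 and 102 CPM in fed livers, against 512, 283 and 301 CPM in unfed livers (-1.26, SE 0.25, adjusted p = 0.000817). For both the lowest unfed liver was above the highest fed one. Ppard, the nuclear receptor PPARδ, had 83.4, 84.9 and 68.8 CPM in fed livers, against 16.3, 15.1 and 15.6 CPM in unfed livers (2.33, SE 0.16, adjusted p = 1.81e-10). No fed liver came near the unfed level.

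Growth hormone acts in pulses on the liver through JAK2 and STAT5, and STAT5 induces its own inhibitors of the SOCS family. Of 22 genes of this axis 4 were higher and 7 lower, beside 10.5% higher and 9.77% lower of all genes tested. Ghr, the receptor, had 727, 630.1 and 759 CPM in fed livers, against 478, 453 and 368 CPM in unfed livers (0.70, SE 0.10, adjusted p = 1.05e-05), and Stat5a rose by 0.65 (SE 0.15). Socs2 had 6.45, 3.66 and 10.3 CPM in fed livers, against 51.4, 38.7 and 23.4 CPM in unfed livers (-2.50, SE 0.51, adjusted p = 0.000814). Receptor and inhibitor thus moved in opposite directions, each with no overlap of the groups. Cux2, a repressor that is female-biased in mouse liver, had 0.721, 1.06 and 0.913 CPM in fed livers, against 2.97, 37.6 and 36 CPM in unfed livers (-4.84, SE 0.89, adjusted p = 0.0003), the steepest fall of any gene of at least 5 CPM whose groups did not overlap. Unfed replicate 1 was far below the other unfed livers. Hsd3b5, a male-biased steroid dehydrogenase, had 198, 112 and 176 CPM in fed livers, against 91.8, 26.7 and 9.72 CPM in unfed livers (1.93, SE 0.52, adjusted p = 0.00958). It was 3.15 without unfed replicate 1, and not past the threshold without unfed replicate 2 (1.68) or with only the ZT22 groups fitted. Igfbp2 fell by 0.89 (SE 0.21), and Igf1 did not pass the test (0.34, adjusted p = 0.0976).

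Among xenobiotic receptors and enzymes 10 of 24 were higher and 5 lower (6 higher without fed replicate 1 or without fed replicate 3). Gstm3, a glutathione transferase, had 69.9, 45.7 and 65 CPM in fed livers, against 8.34, 13.3 and 14.8 CPM in unfed livers (2.31, SE 0.25, adjusted p = 2.16e-07). Cyp2b10, the standard target of the receptor CAR, had 6.01, 5.94 and 3.99 CPM in fed livers, against 7.55, 26.7 and 75.7 CPM in unfed livers (-2.77, SE 0.61, adjusted p = 0.00172; -1.67 without unfed replicate 3), with unfed replicate 1 just above the fed range. CAR itself (Nr1i3) fell by 0.81 (SE 0.14), at 147, 158 and 159.7 CPM in fed and 238, 301 and 278 CPM in unfed livers. Cyp2b, Gstm and Cyp2c genes have near-identical relatives, so their counts carry that uncertainty. Of bile acid genes 1 of 24 was higher and 4 lower (3 higher without unfed replicate 3, 2 without fed replicate 1 or 3). Over all genes tested, 20.2% were called in one direction or the other. Cyp2c70, which makes muricholic acids in mice, had 682, 675 and 655 CPM in fed livers, against 228, 224 and 181 CPM in unfed livers (1.67, SE 0.29, adjusted p = 0.000145). Abcb4, the phospholipid exporter, fell by 0.98 (SE 0.14).

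Further genes were among the steepest falls. Hdc, which makes histamine, had 12.3, 8.62 and 9.76 CPM in fed livers, against 63.1, 84.7 and 43 CPM in unfed livers (-2.63, SE 0.23, adjusted p = 7.49e-09). Fmo2, a flavin monooxygenase, had 10.4, 23.7 and 20.5 CPM in fed livers, against 66.7, 109 and 125 CPM in unfed livers (-2.47, SE 0.29, adjusted p = 8.09e-07). Nlrp12, a sensor of the NLR family, had 20.3, 34.5 and 19.1 CPM in fed livers, against 83.5, 121 and 129 CPM in unfed livers (-2.17, SE 0.23, adjusted p = 1.58e-07). Ranking was among genes whose groups did not overlap (32.9% of all genes), so each unfed liver was above each fed one by selection. Mfsd2a, a carrier of lysophosphatidylcholine, had 12.4, 45.5 and 6.05 CPM in fed livers, against 59.7, 111 and 162 CPM in unfed livers. The log2 fold change was -2.37 (SE 0.49) with all libraries and -3.55 without fed replicate 2.

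The response at ZT22 was next set against that at ZT18, in livers of other libraries. Of the genes higher at ZT22, 917 were also higher at ZT18, which is 59.5% of the ZT22 and 46.8% of the ZT18 genes (at ZT18, 13.3% of all genes were higher and 13.1% lower), and 857 of the lower ones were shared (59.5% and 44.3%). Opposite calls were made for 7 genes higher and 4 lower at ZT22. The difference of the 2 responses was itself past the threshold for 126 genes, 0.855% of those tested, with 73 differences above 0 (0.495%) and 53 below (0.36%). Of these, 72 were called at ZT22. DESeq2 called 290 differences. The ZT18 comparison includes a library, unfed replicate 3, with pancreatic markers summing to 463 CPM against 15 to 24.6 CPM in the other 5 ZT18 livers, and without it and a ZT14 library the count was 96. It was 78, 58, 75 and 55 without unfed replicates 2 and 3 and fed replicates 1 and 2 of ZT22, in that order. The differences given for Ppard, Car3, Ahr, Gss, Rassf6, Plpp2, Alas1, Tcp11l2 and Klhl24 stayed past the threshold without any single ZT22 library and without the 2 libraries of the earlier hours. Those of Ahr (adjusted p = 0.0635), Plpp2 (0.0604) and Alas1 (0.0994) were lost when only the groups compared were fitted, where 21 genes were called in all.

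**Figure D4:**
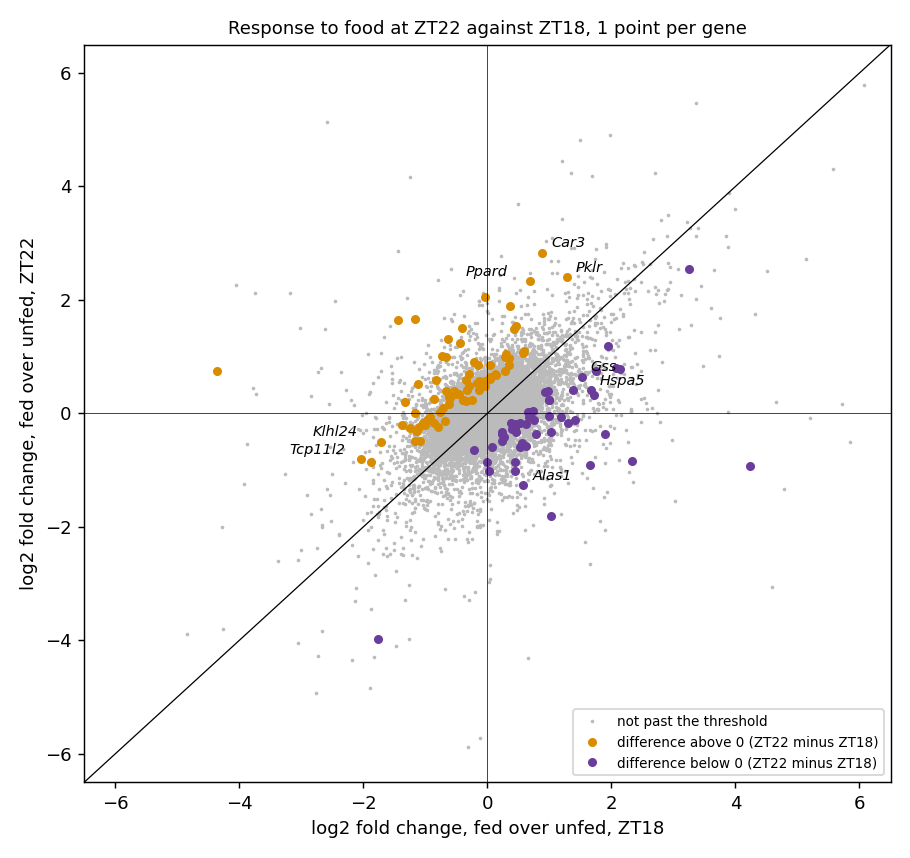
Log2 fold change of fed over unfed at ZT22 (vertical) against ZT18 (horizontal), 1 point per gene, with the line of equal response; 3 of 14741 genes lie outside the axes. Coloured points are the 126 genes whose responses differed, 73 with a difference above 0 and 53 below 0.

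Ppard responded at both hours and more at ZT22. It ranged from 25 to 33 CPM in fed and 15.9 to 20.6 CPM in unfed livers at ZT18, a log2 fold change of 0.69 (SE 0.16), which was lower than at ZT22 by 1.64 (SE 0.22, adjusted p = 0.000901). The unfed livers of both hours stood at a like level, while the fed livers were higher at ZT22. Car3, a carbonic anhydrase, had 3189, 2983 and 3459.6 CPM in fed and 632, 439.6 and 281 CPM in unfed livers at ZT22 (2.83, SE 0.25), and 1607 to 1958 CPM in fed and 640.2 to 1219.8 CPM in unfed livers at ZT18 (0.88, SE 0.23). The difference was 1.95 (SE 0.33, adjusted p = 0.00719). Here the fed livers were higher and the unfed ones lower at ZT22 than at ZT18. For Pklr the difference was 1.12 (SE 0.24, adjusted p = 0.0222), with 282 to 466 CPM in fed and 135 to 176 CPM in unfed livers at ZT18. The call was lost without fed replicate 1 (0.99) or unfed replicate 3 (1.03) of ZT22, or with only the groups compared fitted (adjusted p = 0.0996). Ahr, the aryl hydrocarbon receptor, had 63.8, 72.5 and 79 CPM in fed and 40.7, 43.1 and 48.2 CPM in unfed livers at ZT22 (0.70, SE 0.13), against 35.6 to 50 CPM in fed and 46 to 61.3 CPM in unfed livers at ZT18 (-0.30, SE 0.13). The difference was 1.01 (SE 0.18, adjusted p = 0.00863).

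Other genes responded to food at ZT18 and less, or not past the threshold, at ZT22. Gss, the glutathione synthetase, had 94.5, 99.3 and 105 CPM in fed and 70.3, 58.8 and 61 CPM in unfed livers at ZT22 (0.65, SE 0.08), against 166 to 205 CPM in fed and 64.2 to 66.2 CPM in unfed livers at ZT18 (1.52, SE 0.09). The difference was -0.87 (SE 0.12, adjusted p = 0.000901). Rassf6, of the RASSF family of Hippo pathway regulators, had 14.7, 16.2 and 21.1 CPM in fed and 14, 12.9 and 14.3 CPM in unfed livers at ZT22 (0.33, adjusted p = 0.106), against 28.7 to 37.9 CPM in fed and 8.67 to 10.9 CPM in unfed livers at ZT18. The difference was -1.39 (SE 0.20, adjusted p = 0.0013). In both genes the fed livers were lower at ZT22 than at ZT18. Hspa5, not past the threshold at ZT22, had 1671 to 2004 CPM in fed and 394 to 691 CPM in unfed livers at ZT18, a difference of -1.26 (SE 0.27, adjusted p = 0.0248). The call was lost without unfed replicate 3 (-1.07) or fed replicate 1 (-1.23) of ZT22 or without the 2 libraries of the earlier hours (-1.05), or with only the groups compared fitted (adjusted p = 0.0994). The ER chaperone list as a whole counted 13 of 26 higher with a median of 0.42 at ZT22, and 22 of 26 higher with a median of 1.09 at ZT18, and the difference was past the threshold for 2 of its members.

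Plpp2, a lipid phosphate phosphatase, had 9.44, 9.19 and 9.01 CPM in fed and 15.3, 19.9 and 21 CPM in unfed livers at ZT22 (-1.02, SE 0.13), while its groups coincided at ZT18, with 14.4 to 18.2 CPM in both (0.03, SE 0.12). The difference was -1.06 (SE 0.18, adjusted p = 0.00719). Alas1 ranged from 616 to 903 CPM in fed and 400.0 to 599 CPM in unfed livers at ZT18 (0.58, SE 0.25), so that its difference was -1.83 (SE 0.36, adjusted p = 0.0119). For Alas1 the fed livers had the higher levels at ZT18 and the lower ones at ZT22. Tcp11l2 and Klhl24, an adaptor of cullin ubiquitin ligases, were lower in fed liver at both hours and less so at ZT22. At ZT22 the call for Klhl24 (-0.50, SE 0.15) was lost without unfed replicate 3, fed replicate 1 or fed replicate 3. Klhl24 had 68.8, 85.5 and 59.4 CPM in fed and 99.2, 92.9 and 111 CPM in unfed livers at ZT22, against 24.6 to 38.8 CPM in fed and 103 to 110.0 CPM in unfed livers at ZT18. The difference was 1.21 (SE 0.21, adjusted p = 0.00811). For Tcp11l2 the values were 18.5, 23.8 and 20.8 CPM in fed and 37.6, 34.1 and 38.9 CPM in unfed livers at ZT22, and 7.01 to 9.56 CPM in fed and 32 to 36.8 CPM in unfed livers at ZT18. The difference was 1.21 (SE 0.20, adjusted p = 0.00719). The unfed levels of both genes were alike at the 2 hours, and the fed levels were higher at ZT22 than at ZT18. Changes between hours within a feeding state were not tested, for these and the genes above.

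**Figure D5:**
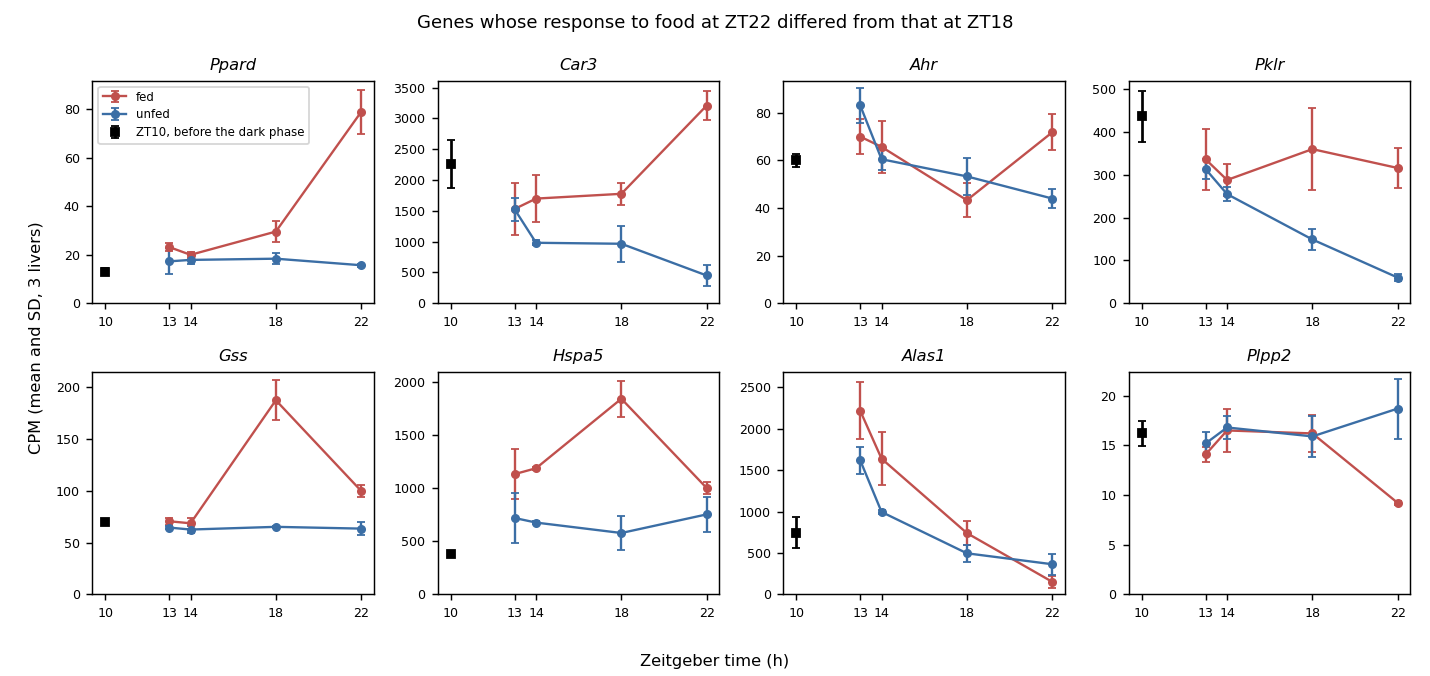
Mean CPM with SD of 3 livers against Zeitgeber time for 8 genes whose response to food at ZT22 differed from that at ZT18, in fed (red) and unfed (blue) livers and in ZT10 livers (black square). In Ppard and Car3 the fed mean is highest at ZT22, in Gss and Hspa5 it is highest at ZT18, and the Pklr panel shows unfed means of 149 CPM at ZT18 and 60 CPM at ZT22.

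Against ZT14, the difference was past the threshold for 661 genes, 4.48% of those tested (438 without unfed replicate 3 of ZT22 and 393 without 1 library each of ZT14 and ZT18, fed replicate 1 and unfed replicate 3). Of these, 538 were called at ZT22. Among the lists, 18 of 21 cholesterol synthesis genes and 12 of 20 fatty acid and triglyceride synthesis genes were past the threshold. At ZT14 Acly averaged 229 ± 42.3 CPM in fed and 185 ± 1.9 CPM in unfed livers (SD, n = 3 each), a log2 fold change of 0.31 (SE 0.13). The difference to ZT22 was 2.33 (SE 0.18, adjusted p = 1.76e-08). Fdps averaged 221 ± 47.6 CPM in fed and 172 ± 19.7 CPM in unfed livers at ZT14, a difference of 3.03 (SE 0.29, adjusted p = 4.58e-07). At ZT22 Acly averaged 788 ± 27.5 CPM in fed and 126 ± 24.9 CPM in unfed livers, and Fdps 419 ± 34.4 CPM in fed and 40.1 ± 11.3 CPM in unfed livers. The means of both genes were thus higher in fed and lower in unfed liver at ZT22 than at ZT14, a change between hours that was not tested by feeding state. Aqp8 averaged 28.2 ± 4.39 CPM in fed and 22.8 ± 3.06 CPM in unfed livers at ZT14, which put the difference at 2.94 (SE 0.31, adjusted p = 1.12e-06). For Aqp8 the unfed level at ZT22 (24.3 ± 5.05 CPM) was near that of ZT14, and the fed livers stood apart (233 ± 37 CPM). Pter, a phosphotriesterase-related gene, differed by 1.45 (SE 0.15, adjusted p = 1.1e-06), with 121 ± 5.57 CPM in fed and 44.6 ± 0.689 CPM in unfed livers at ZT22, against 36.2 ± 2.14 CPM in fed and 36.6 ± 1.03 CPM in unfed livers at ZT14.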

How the data were processed

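Liver polyA RNA of C57BL/6 mice, 27 libraries in 9 groups of 3, was analysed. The authors deposited whole-number read counts per RefSeq transcript with no normalization. The submitters' processing notes name STAR, HOMER, DESeq2 and the builds mm10 and rn5; neither versions and roles nor a strand setting could be read from them. Among counts of 1 to 10 in the ZT22 libraries, 77.8% to 81.0% were even, so counts may not be independent molecules. Of 40458 rows, 40214 matched a RefSeq gene (GRCm38.p6), giving 24786 genes, and 7580 of these had more than 1 row and were represented by that with most counts. Over all rows, ZT22 libraries held 29.29 to 51.02 M counts, of which 0.326% to 0.49% matched no gene and were left out. Counts in the rows not chosen for a gene were left out too. Their share is not given here, so fewer counts than these totals entered the test. edgeR 4.0.16 (R 4.3.3) was fitted to all 27 libraries with TMM scaling and filterByExpr, and the quasi-likelihood F-test was adjusted by Benjamini-Hochberg over 14741 genes. Alternatives were DESeq2 1.42.0, other size factors, no filter, only the groups compared, a replicate block, left-out libraries and another choice of row. Counts were also simulated with the spread that this fit estimated. There the test recovered 72.4% of 98 genes changed 2-fold and 93.9% of 99 changed 4-fold, with 13 false calls. Far fewer genes were changed there than were called in the data, and recovery in the data themselves was not tested. Named genes were, per list, up to 6 with the smallest p, 3 opposite and 2 not past the threshold, plus the 15 largest changes each way at 5 CPM or more without overlap, the 12 smallest p of each difference between hours, list members past its threshold and all markers; Hsp90b1 was chosen after its values were seen. Members and lists were chosen with earlier results of these data known. Mitochondrial transcripts were not matched, and they and some other genes are not reported here.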

Additional observations from a re-analysis of the deposited data

Results flagged for a closer look

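In these 15 genes the response to food at ZT22 differed from the response at an earlier hour by the edgeR test of the difference itself. Against ZT18 the difference in log2 fold change was above 0 for Car3 (1.95), Ppard (1.64), Klhl24 (1.21), Tcp11l2 (1.21), Pklr (1.12) and Ahr (1.01). It was below 0 for Alas1 (-1.83), Rassf6 (-1.39), Hspa5 (-1.26), Plpp2 (-1.06) and Gss (-0.87). Against ZT14 it was above 0 for Fdps (3.03), Aqp8 (2.94), Acly (2.33) and Pter (1.45). Hspa5 and Pklr were the 2 of these whose call was lost without 1 ZT22 library, and Hspa5 was also lost without the ZT18 library with pancreatic transcripts and a ZT14 library.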

How the results depend on the processing

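With only the groups compared in the fit, 1004 genes were higher and 746 lower in fed liver, and 21 differed from ZT18, against 1541, 1440 and 126 with all 27 libraries. DESeq2 called 290 differences from ZT18. Without 1 ZT22 library in turn, 1149 to 1390 genes were higher, 1035 to 1334 lower, 55 to 124 differed from ZT18 and 438 to 713 from ZT14. Without ZT14 fed replicate 1 and ZT18 unfed replicate 3 together, 393 differed from ZT14. The causes of these changes in count were not tested. Deviations from the group means correlated weakly between fed and unfed ZT22 libraries of the same number (r = 0.0771, 0.0141 and 0.0288). For different numbers r ran from -0.0995 to 0.0606. Such weak correlations cannot decide whether the numbers pair libraries. With a replicate block 1577 were higher, 1452 lower, 136 differed from ZT18 and 665 from ZT14. For 4 genes that did not pass the test the sign changed with the library left out: the log2 fold change ran from -1.15 to 0.72 for Lpin1, -0.08 to 0.17 for Atf4, -0.08 to 0.09 for Clock and -0.16 to 0.48 for Tat.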

Other observations

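Autophagy and lysosome genes were 8 lower and 1 higher of 24 in fed liver (2 higher without unfed replicate 1, fed replicate 2 or fed replicate 3). Of all genes tested, 9.77% were lower and 10.5% higher. Bnip3, a receptor of mitophagy, had 83, 99.9 and 92.2 CPM in fed livers, against 163, 225 and 274 CPM in unfed livers (log2 fold change -1.27, SE 0.14, adjusted p = 4.57e-07 by edgeR). Gabarapl1, of the ATG8 family, fell by 0.85 (SE 0.12) and Wipi1, which binds phosphatidylinositol phosphate on the forming autophagosome, by 0.70 (SE 0.10). Immediate early genes were 5 lower and 0 higher of 18 (0 higher also at an unadjusted p under 0.05 by edgeR and 0 by DESeq2), and Klf10, a zinc finger factor of the Krüppel-like family, had 12.8, 8.95 and 9.59 CPM in fed livers, against 16.5, 23 and 16.4 CPM in unfed livers (-0.83, SE 0.19, adjusted p = 0.00271).

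In one-carbon metabolism (6 higher and 3 lower of 22) Mat1a, which makes S-adenosylmethionine, had 2962, 3630.2 and 3116 CPM in fed livers, against 4670, 5997 and 8428 CPM in unfed livers (-0.98, SE 0.16, adjusted p = 7.85e-05), and Gamt, which uses it to make creatine, had 139, 165 and 120.2 CPM in fed livers, against 63.8, 76.6 and 64.1 CPM in unfed livers (1.05, SE 0.13, adjusted p = 3.25e-06). No liver of one group reached the other for either gene. The count higher was 3 without unfed replicate 2 and 2 without fed replicate 1, and the count lower was 1 without replicate 3 of either group. Qprt, which leads from quinolinate to NAD, had 139, 131 and 139.7 CPM in fed livers, against 77.3, 76.3 and 78.1 CPM in unfed livers (0.82, SE 0.11), and Haao, which makes quinolinate's precursor, rose by 0.74 (SE 0.10). Genes of NAD and kynurenine metabolism were 4 higher and 4 lower of 20 (2 lower without any one ZT22 library other than unfed replicate 1). Beside this list and that of one-carbon metabolism, 10.5% of all genes tested were higher and 9.77% lower.

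Acute phase proteins were 7 lower and 2 higher of 23 (3 lower without unfed replicate 2, 4 without fed replicate 2 or 3; 1 higher without unfed replicate 1 or 3 or fed replicate 1 or 2). Serpina3n, a protease inhibitor, fell by 0.78 (SE 0.13), while Apcs, the serum amyloid P component, rose by 1.18 (SE 0.22). Apolipoproteins and genes of VLDL assembly were 3 lower and 1 higher of 19 (3 higher without unfed replicate 2, 2 without fed replicate 3). Over all genes tested, 20.2% were called in one direction or the other. Apoa5, which aids clearance of triglyceride, had 938, 1111 and 868 CPM in fed livers, against 1594, 2131 and 1600.1 CPM in unfed livers (-0.87, SE 0.13, adjusted p = 2.78e-05).

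Counts of several lists rested on single libraries. Over all genes tested, 10.5% were higher and 9.77% lower in fed liver. Amino acid breakdown had 5 higher and 2 lower of 30 (3 higher without unfed replicate 2; lower were 0 to 6 over the libraries left out, 6 without unfed replicate 1 and 4 without fed replicate 2). The urea cycle list had 2 higher and 3 lower of 12 (1 higher without unfed replicate 1, fed replicate 1 or fed replicate 2; 1 lower without unfed replicate 2 or 3 or fed replicate 3). Cytosolic ribosomal proteins had 5 higher and 0 lower of 30 (higher were 1 without unfed replicate 1, 11 without unfed replicate 2, 2 without unfed replicate 3 or fed replicate 2 and 3 without fed replicate 1; lower were 0 also at an unadjusted p under 0.05 by edgeR and 0 by DESeq2). Ribosome biogenesis had 1 higher and 4 lower of 26 (2 lower without unfed replicate 2 or 3, 1 without fed replicate 2). Cell cycle genes had 4 higher and 0 lower of 21 (2 higher without unfed replicate 1 or 3, 1 without unfed replicate 2 or fed replicate 3; lower were 0 also at an unadjusted p under 0.05 by edgeR and 0 by DESeq2).

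Bile duct markers summed to 28.3 to 38.2 CPM in fed and 22.6 to 33.4 CPM in unfed livers, lymphocyte markers to 10.2 to 11.4 CPM in fed and 8.97 to 13.4 CPM in unfed livers, and neutrophil and monocyte markers to 1.37 to 1.71 CPM in fed and 1.38 to 3.07 CPM in unfed livers. Fat cell markers summed to 41.3 to 43.9 CPM in fed and 24.8 to 44.5 CPM in unfed livers with Ucp1 at 0. Gut epithelium markers summed to 43.4 to 52.4 CPM in fed and 58.1 to 75 CPM in unfed livers, without overlap, and with Krt20, Reg3b, Sis and Alpi at 0. Of the 2 gut markers tested Lgals4, a galectin, was lower in fed liver, with 7.93, 10.4 and 12 CPM in fed livers, against 24.3, 31.1 and 37.3 CPM in unfed livers (-1.62, SE 0.33, adjusted p = 0.000969 by edgeR). Its part in other results was not tested.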
